A study of Homo sapiens with 2 samples.

Results

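The genes examined here encode the proteasome, its activators, its inhibitor and the chaperones that assemble it. They were taken by symbol: protein-coding genes whose names begin with PSMA, PSMB, PSMC, PSMD, PSME, PSMF or PSMG and a digit, without the immunoproteasome subunits PSMB8, PSMB9 and PSMB10. The rule found 46 genes among 57820 identifiers, of which 19263 were protein-coding. PSMB3, a beta subunit, matched no identifier and was not analysed here. Of the genes found, 2 belong by name alone. PSMC3IP encodes a partner of meiotic recombinases, and PSME3IP1 encodes a protein that binds the nuclear activator PSME3. Both are described separately from the 44 proteasome genes proper, but are counted in the totals unless stated.

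RNA came from HCT116, an established human colorectal carcinoma line, with 1 library for the CREB1 wild-type genotype and 1 for the CREB1 knockout. The knockout cells are a single clone, selected after delivery of the PX461 plasmid, which carries a nickase form of Cas9 and guides to CREB1. The labels state that this clone lacks CREB1 altogether. Both cultures grew in DMEM with fetal bovine serum, penicillin and streptomycin, and no other treatment is stated. CREB1 is an activator that acts through cAMP response elements, and the comparison asks how gene expression differs without it. With 1 library per genotype there is no replicate error, and a difference between genotypes cannot be told apart from a difference between clones, cultures or library preparations.

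The deposited expected counts, which are estimates of reads per gene, summed to 34511071 in wild-type and 31178312 in knockout cells. CREB1 itself had 614 and 499 counts (log2 ratio -0.23, 95% counting interval -0.40 to -0.05). This ratio was scaled by TMM, a trimmed mean over genes, and when the libraries were scaled by their totals instead the interval included 0 (-0.15, -0.33 to 0.02). Since reads summed over a gene do not reveal short edits, the value is no check of the genotype. Its paralogs were ATF1, with 246 and 198 counts (-0.24, interval -0.52 to 0.04), and CREM, 2.28-fold higher, with 217 and 470 (1.19, 0.95 to 1.43). Of 6 epithelial marker genes all were expressed, among them EPCAM with 3129 and 2929 counts and KRT8 with 61305 and 50595. The leukocyte markers PTPRC and CD3E had 0 counts in both libraries. Of the fibroblast and muscle markers, COL1A1 (83 and 89 counts) and DES (142 and 64) also passed the level set below for expressed genes. DES was 2.10-fold lower (log2 ratio -1.07, interval -1.53 to -0.64).

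The proteasome degrades proteins that carry ubiquitin chains. Its core particle is a barrel of stacked rings, with outer alpha rings that gate the entrance and inner beta rings that hold the proteolytic sites. The regulatory particle caps the barrel: a ring of ATPases unfolds the substrate, a base and a lid bind and remove ubiquitin, and alternative activators can open the gate in its place. Transcription of the subunit genes is known to be raised together by the factor NFE2L1 when proteasome activity is short, through antioxidant-type elements in their promoters. Cancer cells such as colorectal lines depend on the proteasome for protein turnover.

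The promoters are shown first, because CREB1 and NFE2L1 are known to bind promoters. RefSeq start sites (GRCh38.p14) were given for 40 of the 46 genes, with 50 upstream windows of 250 bases. PSMA7, PSMB1, PSMB6, PSMB7, PSMD4 and PSMG3 were missing from that table. The counts were made on hg19, so the coordinates below place the sequences and not the reads. The stretches printed are the parts of at least 100 bases outside annotated exons, at the most upstream start of each gene. They are the proteasome subunit with the lowest ratio among those with such a stretch (PSMA5), the gene with the highest (PSMF1) and the 4 genes with a TGAC motif in it. Capitals mark matches to CCAAT (also ATTGG), the CREB half-site TGACG (also CGTCA) and the antioxidant-type element TGACNNNGC (also GCNNNGTCA).
PSMA5, chr1:109426449-109426698, minus strand: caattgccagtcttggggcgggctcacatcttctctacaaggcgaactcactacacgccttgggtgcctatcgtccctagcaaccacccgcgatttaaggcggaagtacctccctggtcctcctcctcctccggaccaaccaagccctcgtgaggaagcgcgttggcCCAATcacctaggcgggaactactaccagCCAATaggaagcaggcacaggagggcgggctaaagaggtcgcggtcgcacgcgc
PSMD9, chr12:121888540-121888730, plus strand: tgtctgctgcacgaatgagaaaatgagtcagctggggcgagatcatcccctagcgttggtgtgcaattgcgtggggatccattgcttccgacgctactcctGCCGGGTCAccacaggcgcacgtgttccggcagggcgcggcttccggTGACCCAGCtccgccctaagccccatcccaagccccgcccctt
PSMD12, chr17:67366628-67366827, minus strand: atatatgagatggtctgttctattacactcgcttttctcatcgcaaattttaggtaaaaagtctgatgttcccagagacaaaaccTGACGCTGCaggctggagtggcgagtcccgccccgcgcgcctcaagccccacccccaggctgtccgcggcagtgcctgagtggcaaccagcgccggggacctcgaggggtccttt
PSMD3, chr17:39980557-39980796, plus strand: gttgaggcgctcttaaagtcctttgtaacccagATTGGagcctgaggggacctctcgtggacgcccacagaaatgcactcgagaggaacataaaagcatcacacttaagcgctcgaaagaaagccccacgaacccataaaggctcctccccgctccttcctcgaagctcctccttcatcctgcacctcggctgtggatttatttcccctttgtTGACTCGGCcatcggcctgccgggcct
PSME1, chr14:24135944-24136157, plus strand: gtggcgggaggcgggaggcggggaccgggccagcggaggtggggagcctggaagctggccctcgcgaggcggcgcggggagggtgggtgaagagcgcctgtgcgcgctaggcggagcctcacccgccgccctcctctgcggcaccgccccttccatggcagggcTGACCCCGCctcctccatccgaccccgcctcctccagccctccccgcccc
PSMF1, chr20:1113013-1113262, plus strand: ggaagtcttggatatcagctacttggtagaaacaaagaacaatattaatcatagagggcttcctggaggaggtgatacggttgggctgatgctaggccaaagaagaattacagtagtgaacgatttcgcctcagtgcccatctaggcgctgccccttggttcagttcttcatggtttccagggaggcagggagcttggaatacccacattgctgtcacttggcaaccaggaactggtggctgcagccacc

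The full cAMP response element TGACGTCA was found in 0 of the 50 windows, against 2.05% of 21207 windows of protein-coding genes. The half-site TGACG, which is also part of the full element, was present in 15 windows (30%), against 24.4% of all. The antioxidant-type element was present in 11 windows (22%), against 11.2% of all, and CCAAT in 21 (42%), against 32.8%. TGACNNNGC and TGACG can overlap, as in PSMD12, where both begin 165 bases before the start. A match of letters does not show that a factor binds, and a window without one shows only that these letters are absent from it.

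In the knockout library the proteasome genes stayed close to their wild-type level. No difference between roles was tested. All 7 expressed alpha subunits and all 8 lid subunits of the set had log2 ratios (knockout over wild-type) below 0. With total-count scaling PSMA6 (0.02) and the lid subunit PSMD3 (0.009) lay just above 0. The small lid subunit SEM1, outside the symbol rule, had a ratio of 0.12 with an interval that included 0. Below 0 lay 48.8% of all expressed genes and 48.6% of the more deeply counted protein-coding genes, and 30 of the 44 expressed genes of the set (21 with total-count scaling). The beta subunits were divided, with PSMB1 and PSMB5 lower and PSMB7 and PSMB2 higher. The gate-opening activators PSME1 and PSME2 and the inhibitor PSMF1 were higher. No proteasome gene was 2-fold apart, and the largest ratio among all the genes taken was that of PSMC3IP, 1.55-fold higher.

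Ratios are of counts scaled to library depth by the TMM method, levels are given as counts per 1000000 (CPM), and each has an exact 95% interval from the 2 counts. These intervals cover counting error only. A ratio is called beyond counting error when its interval excludes 0 on the log2 scale. Genes are called expressed from a mean of 1 CPM, and 44 of the 46 genes passed. The 2 that did not are PSMA8, a testis-specific alpha subunit, and PSMB11, the thymus-specific catalytic beta subunit. Both had 0 counts in both libraries, which allows up to 0.0892 CPM in the wild-type and 0.0938 CPM in the knockout library.

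Of the 44 expressed genes, 20 were lower and 10 higher beyond counting error, and 14 had intervals that included 0. Among all 12886 expressed genes, 25.5% were lower and 26.4% higher by the same rule. This share grows with depth, and among 7683 protein-coding genes averaging 10 CPM or more, it was 29.1% lower and 31% higher. The split depends on the scaling: with total counts in place of TMM, 9 proteasome genes were lower and 14 higher, and 18.8% and 35.2% of all expressed genes. So the share of lower genes among those beyond counting error was 66.7% with TMM and 39.1% with total counts. Over all expressed genes, 3283 were lower and 3400 higher with TMM, and 2421 lower and 4532 higher with total counts. The calls over all expressed genes moved the same way, from 25.5% to 18.8% lower and from 26.4% to 35.2% higher.

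The median log2 ratio of the 44 genes was -0.067, against 0.0078 for all expressed genes, and with total-count scaling it was 0.0056 against 0.081. The distance between both medians was -0.075, which a change of scaling cannot alter. It was -0.049 after a lowess correction for transcript length and GC content. The interquartile range of the set was -0.13 to 0.05, against -0.16 to 0.18 for the protein-coding genes averaging 10 CPM or more, and 41 of 44 genes (93.2%) lay within 1.25-fold, against 77.6%. That comparison set shares only a lower limit of depth: its median level was 28.2 CPM, against 70.1 CPM for the set, and the difference in spread was not tested. At 2-fold, 0 of 44 genes were called, where 2.92% of all expressed genes and 1.12% of those averaging 10 CPM or more were. At 1.5-fold 1 gene was called, PSMC3IP, where the shares were 10.8% and 5.79%.

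**Figure D1:**
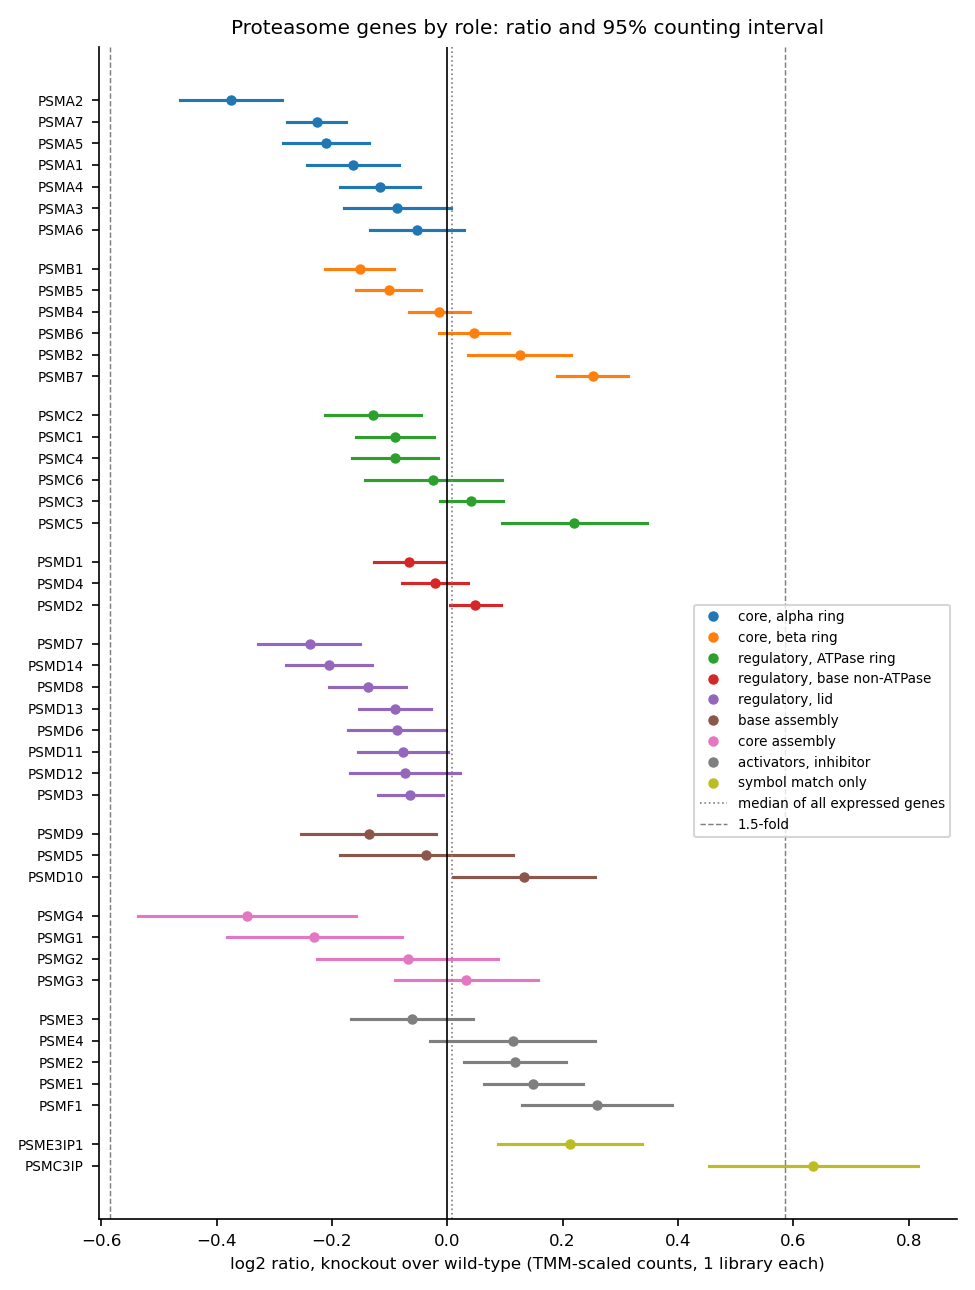
Log2 ratio of each expressed proteasome gene, knockout over wild-type (x axis), grouped and coloured by role; points are TMM-scaled ratios from 1 library each and bars are 95% counting intervals. The alpha ring and the lid genes of the set lie to the left of 0, and the activators and the inhibitor mostly to the right. PSMC3IP alone passes the dashed 1.5-fold line. With total-count scaling every point moves right by about 0.073.

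**Figure D2:**
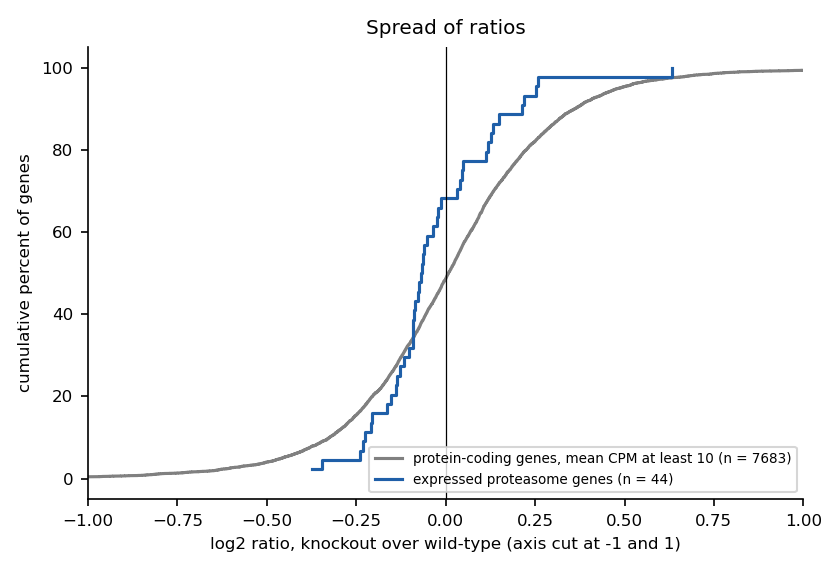
Cumulative percent of genes (y axis) by log2 ratio, knockout over wild-type (x axis, shown from -1 to 1), for the 44 expressed proteasome genes and for 7683 protein-coding genes averaging 10 CPM or more. The proteasome line is steeper, with 93.2% of genes within 1.25-fold against 77.6%, and the genes behind it are more deeply counted, with a median level of 70.1 against 28.2 CPM.

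The alpha ring forms the gate of the core particle and its subunits differ in sequence but share a fold. Its median log2 ratio was -0.16, and 5 of 7 expressed members were lower beyond counting error. The shares over all expressed genes, to be set beside this role and those that follow, were 25.5% lower and 26.4% higher. Among protein-coding genes averaging 10 CPM or more they were 29.1% and 31%. PSMA7, the most abundant of the rings, had 6998 wild-type counts (208 CPM) and 5685 knockout counts (178 CPM), a log2 ratio of -0.23 (interval -0.28 to -0.18). PSMA5 had 3236 and 2659 counts (96.2 and 83.2 CPM), with a ratio of -0.21 (-0.28 to -0.14). Both were 1.16 to 1.17-fold lower, which is well outside counting error and far from 2-fold. PSMA1 had 2759 and 2342 counts (-0.16, interval -0.24 to -0.08) and PSMA4 had 3654 and 3203 (-0.12, -0.19 to -0.05). PSMA3 (1995 and 1785 counts) and PSMA6 (2595 and 2378) had ratios of -0.09 and -0.05 with intervals that included 0. With total-count scaling the alpha median was -0.090, and 4 members remained lower beyond counting error.

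PSMA2 had the lowest ratio of all the genes taken, and its value changed when the counts of an overlapping gene were added. It had 2421 expected counts in wild-type and 1774 in knockout cells (71.9 and 55.5 CPM), a log2 ratio of -0.38 (interval -0.46 to -0.29). A protein-coding gene model on the same strand that overlaps it, AC010132.3, went the other way, with 430 and 595 counts and a ratio of 0.54 (0.36 to 0.72). The expected counts of PSMA2 were not whole numbers, as reads shared with another gene leave them. When the counts of both were summed, an alternative chosen after the values were seen, the ratio was -0.19 (-0.27 to -0.11). That value lies among the other alpha subunits, and the sums, 2850.91 and 2368.9, were not whole numbers either. The part of shared reads in the ratio of PSMA2 was not tested. MRPL32, which overlaps PSMA2 on the opposite strand, had a ratio of -0.23.

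The beta ring holds the proteolytic sites, and its expressed members were evenly divided, with 3 below and 3 above 0 and a median of 0.017, which was -0.0045 with DESeq2 scaling. Beyond counting error 2 were lower and 2 higher, or 1 and 4 with total-count scaling. PSMB7, the catalytic subunit with trypsin-like activity, was the highest, with 4036 wild-type counts (120 CPM) and 4568 knockout counts (143 CPM), or 1.19-fold (log2 ratio 0.25, interval 0.19 to 0.31). PSMB5, which carries the chymotrypsin-like activity that bortezomib blocks, had 5366 and 4753 counts and a ratio of -0.10 (-0.16 to -0.04), or -0.03 with total-count scaling. PSMB6, the caspase-like subunit, had 4469 and 4387 counts with a ratio of 0.05 (-0.01 to 0.11). The catalytic subunits thus lay on both sides of 0, and the ratios of PSMB7 and PSMB5 have intervals that do not overlap. Among the non-catalytic subunits PSMB1 was lower (4962 and 4244 counts, -0.15), PSMB2 was higher (1991 and 2064 counts, 0.13) and PSMB4 had 6072 and 5716 counts (-0.01, interval -0.07 to 0.04). With total-count scaling PSMB4 (0.06) and PSMB6 (0.12) were higher beyond counting error, and after the lowess correction PSMB2 was not.

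The immunoproteasome subunits, left out by the rule, replace the catalytic beta subunits in cells exposed to interferon. PSMB10, the counterpart of PSMB7, was higher too (760 and 1078 counts, 1.49-fold), PSMB9, the counterpart of PSMB6, was lower (140 and 72 counts, log2 ratio -0.88), and PSMB8 had 4 counts in each library.

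The ATPase ring drives unfolding. PSMC2, PSMC1 and PSMC4 were lower by small amounts, with ratios of -0.13, -0.09 and -0.09, and with total-count scaling no ATPase gene was lower beyond counting error. PSMC3 (5419 and 5300 counts, 0.04) and PSMC6 (1208 and 1129 counts, -0.02) had intervals that included 0, though with total-count scaling PSMC3 (0.11) was higher beyond counting error. PSMC5 had the highest ratio of the ring. It had 980 wild-type counts (29.1 CPM) and 1085 knockout counts (33.9 CPM), a log2 ratio of 0.22 (0.09 to 0.35). FTSJ3, which overlaps it on the opposite strand, had a ratio of -0.01.

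In the base of the regulatory particle, the scaffold PSMD2 was the most counted of all the genes taken, with 8391 and 8248 counts and a log2 ratio of 0.05 (interval 0.0047 to 0.093). The other scaffold, PSMD1, had 4463 and 4052 counts (-0.07), and the ubiquitin receptor PSMD4 had 5145 and 4819 (-0.02, -0.08 to 0.04). With total-count scaling PSMD1 lay at 0.007, PSMD4 at 0.05 and PSMD2 at 0.12. PSMD2 was beyond counting error with TMM but not with DESeq2 (0.03) or upper-quartile (0.04) scaling.

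The lid holds the subunit that removes ubiquitin chains. Of its 8 members in the set, 6 were lower beyond counting error, and the median was -0.089. PSMD14, the deubiquitinase of the lid, had 3232 wild-type counts (96.1 CPM) and 2665 knockout counts (83.3 CPM), a log2 ratio of -0.20 (interval -0.28 to -0.13). PSMD7, its partner in the catalytic dimer, had 2332 and 1878 counts (69.3 and 58.7 CPM), a ratio of -0.24 (-0.33 to -0.15). These 2 partners had the lowest ratios of the lid and, with total-count scaling, were the lid genes that stayed beyond counting error, at -0.17 for PSMD7 and -0.13 for PSMD14. The other 6, PSMD3, PSMD6, PSMD8, PSMD11, PSMD12 and PSMD13, are structural subunits with ratios between -0.14 (PSMD8, 3951 and 3412 counts) and -0.06 (PSMD3, 5433 and 4939 counts). With total-count scaling the lid median was -0.016.

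Assembly of the core and of the base uses dedicated chaperones that leave the finished particle. Of the core chaperones, PSMG4 had 538 and 402 counts, a log2 ratio of -0.35 (interval -0.54 to -0.16). PSMG1 had 795 and 644 counts, a ratio of -0.23 (-0.38 to -0.08). PSMG4 had the lowest counts of the expressed proteasome genes proper and the widest interval among them. Their pairing partners had intervals that included 0: PSMG2, which forms a dimer with PSMG1, had 702 and 636 counts (-0.07, -0.23 to 0.09), and PSMG3, the partner of PSMG4, had 1081 and 1051 (0.03, -0.09 to 0.16). The interval of PSMG3 does not overlap that of PSMG4, while those of PSMG1 and PSMG2 do. Of the base chaperones, PSMD9 was lower (1270 and 1098 expected counts, -0.14), PSMD10, also known as gankyrin, was higher (1053 and 1097 counts, 0.13), and PSMD5 had an interval that included 0 (752 and 697 counts, -0.04). The call of PSMD9 was lost with total-count scaling (-0.06) and that of PSMD10 with DESeq2 (0.11) and upper-quartile (0.12) scaling.

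The activators and the inhibitor had a median of 0.12, and 3 of 5 were higher beyond counting error. PSME1 and PSME2 are the subunits of one ring-shaped activator, induced by interferon in many cells. PSME1 had 2137 wild-type counts (63.5 CPM) and 2252 knockout counts (70.4 CPM), a log2 ratio of 0.15 (0.06 to 0.24). PSME2 had 2032 and 2095 counts (60.4 and 65.5 CPM), a ratio of 0.12 (0.03 to 0.21). These paired subunits were close to each other in ratio. Both genes lie on chromosome 14 with the same median log2 ratio of neighbouring genes (0.05), and the part of position in their ratios was not tested. Per kilobase of the median transcript their wild-type levels were 62.3 (PSME1) and 80.0 (PSME2) CPM. With the longest transcripts they were 55.9 and 21.9. PSMF1, an inhibitor of the core particle, had 911 and 1036 counts (27.1 and 32.4 CPM), a ratio of 0.26 (0.13 to 0.39) and the highest of the proteasome genes proper. The nuclear activators PSME3 (1522 and 1386 counts, -0.06) and PSME4 (785 and 807 counts, 0.11) had intervals that included 0, though with total-count scaling PSME4 (0.19) was higher beyond counting error. RNF31, which overlaps PSME2 on the opposite strand, had a ratio of 0.33, and EMC9, which overlaps PSME1, 0.34. In the whole set, 15 expressed protein-coding genes overlapped an expressed gene of the set on the opposite strand, and 9 had the same sign as it and 6 the other. Among the 6 were BECN1 (0.25) beside PSME3, NRDE2 (0.39) beside PSMC1, DNAJC2 (0.25) beside PSMC2, SLC22A23 (0.29) beside PSMG4 and ACYP2 (-0.66) beside PSME4. Whether strand was used in the counting is not stated, and the part of these overlaps in the ratios was not tested.

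The genes matched by symbol alone were both higher, and PSMC3IP had the highest ratio of all the genes taken. PSMC3IP had 421 wild-type counts (12.5 CPM) and 621 knockout counts (19.4 CPM), a log2 ratio of 0.63 (0.45 to 0.82). MLX, on the opposite strand and overlapping it, was higher as well (1187 and 1543 counts, 0.45, interval 0.34 to 0.56). PSME3IP1 had 997 and 1098 counts, a ratio of 0.21 (0.09 to 0.34). Without these, the median over 42 genes was -0.071, with 20 lower and 8 higher beyond counting error. The summed counts of the proteasome genes proper were 125623 and 114965, or 0.364% and 0.369% of the library totals, with a log2 ratio of -0.05 (-0.07 to -0.04) after TMM scaling.

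Subunits that share a particle differed widely in mRNA level. Levels between genes are compared as CPM per kilobase, using the median length of a gene's protein-coding transcripts in GENCODE 29. The highest subunit was PSMA7, at 245 CPM per kilobase in wild-type and 209 in knockout cells. PSMD12, a lid subunit, was the lowest of the core and regulatory subunits, at 16.6 and 15.8. The span was therefore 14.7-fold in wild-type and 13.3-fold in knockout cells. Within the alpha ring it was 6.66-fold (PSMA7 over PSMA5) and within the ATPase ring 6.06-fold (PSMC3 over PSMC6) in the wild-type library. In the beta ring, 5 of 6 members lay between 147 and 187 CPM per kilobase, and PSMB2 was at 17.1. These values depend on the length used. With the longest transcripts the same 5 lay between 76.1 (PSMB1) and 152 (PSMB6), and PSMB2 at 14.0. The alpha span was then 12.5-fold, with PSMA6 the lowest. The chaperones were lower than most subunits, whose median was 78.1 CPM per kilobase in the wild-type library: the base chaperones had a median of 26.6, and the core chaperones ranged from 15.4 (PSMG1) to 31.9 (PSMG3). PSME4, the large nuclear activator, was the lowest of all at 3.29.

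The order of levels was nearly the same in both libraries. Spearman's rho across the 44 genes, which are not independent replicates and share their lengths, was 0.986, and no gene moved by more than 6 places. PSMA2 made that largest move, from place 20 to 26, together with PSME1, from 23 to 17. The 4 highest genes in the wild-type library were PSMA7, PSMD4, PSMB4 and PSMB5, and PSMB7 took the fourth place in the knockout library. The order itself depends on the length used: with the longest transcript of each gene the span of the subunits was 18.1-fold, PSMC5 was the lowest, and PSMA6 went from place 14 to 29.

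**Figure D3:**
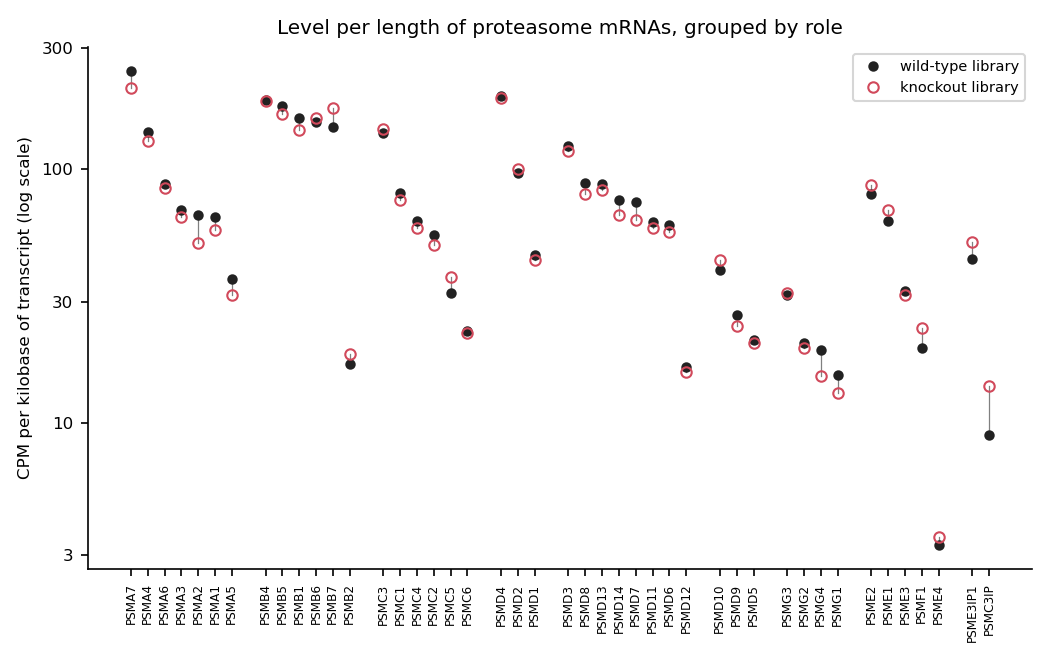
Level of each expressed proteasome gene in CPM per kilobase of transcript (y axis, log scale) in the wild-type (filled) and knockout (open) library, grouped by role and ordered by wild-type level; 1 library each, with no error bars. Subunits of one particle span from 16.6 to 245 CPM per kilobase in the wild-type library, and the open and filled points of a gene lie close together.

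The genomic surroundings of the genes were examined, since some genes of the related lists lay in a block of chromosome 17 that was lower in the knockout library. For each gene the median log2 ratio was taken over up to 25 expressed protein-coding neighbours on either side. Across the 46 genes these medians lay between -0.088 (PSMB1) and 0.11 (PSMD8). Of 7 genes of the set on chromosome 17, PSMB6, PSMC5, PSMD11 and PSMD12 had neighbour medians between -0.018 and 0.012, and PSMD3, PSME3 and PSMC3IP between 0.083 and 0.11. By contrast, the neighbours of GPS1, NPLOC4 and MAFG, described next, had medians of -0.60, -0.51 and -0.53.

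Genes around the proteasome were taken from fixed lists and read the same way. The shares over all expressed genes were 25.5% lower and 26.4% higher, or 18.8% and 35.2% with total-count scaling. They are the comparison for each list below, beside 29.1% lower and 31% higher among protein-coding genes averaging 10 CPM or more. Of 15 other subunits and proteasome-bound proteins, 4 were lower and 4 higher beyond counting error (26.7% each), and the median was -0.04. With total-count scaling 4 were lower and 6 higher, and the median was 0.03. The ubiquitin receptor ADRM1 was lower (4888 and 4174 counts, log2 ratio -0.15, interval -0.21 to -0.09) and UCHL5, the deubiquitinase that it binds, was higher (593 and 708 counts, 0.33, 0.17 to 0.49). The small lid subunit SEM1 (1175 and 1209 counts, 0.12), the core maturation factor POMP (1688 and 1498, -0.10), the deubiquitinase USP14 (190 and 154, -0.23) and the assembly factor PAAF1 (201 and 186, -0.04) had intervals that included 0. SEM1 was higher beyond counting error with total-count scaling (0.19) and after the lowess correction (0.15). The lowest and highest of this list were PITHD1, 1.51-fold lower (1063 and 671 counts), and the ubiquitin ligase HUWE1, 1.30-fold higher (5545 and 6836 counts).

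Of 12 genes of the NFE2L1 pathway, 3 were lower and 4 higher beyond counting error, or 2 and 5 with total-count scaling. NFE2L1 itself had 3531 and 3798 counts, a log2 ratio of 0.18 (0.11 to 0.25) beside a neighbour median of 0.18, and its relative NFE2L2 had 686 and 776, a ratio of 0.25 (0.10 to 0.40). DDI2, the protease that activates NFE2L1, had 690 and 680 counts (0.05, interval -0.10 to 0.21), and NGLY1, which removes its sugar chains, had 465 and 396 counts (-0.16, -0.36 to 0.04). The small MAF partners were lower, MAFF not beyond counting error with total-count scaling (-0.21). MAFK had 1110 and 721 counts (-0.55, -0.69 to -0.41), MAFG had 1593 and 1090 (-0.47, -0.59 to -0.36) and MAFF had 305 and 238 (-0.28, -0.54 to -0.04). Of these, MAFG lies in the chromosome 17 block and MAFK, on chromosome 7, has a neighbour median of 0.08. SYVN1 had the highest ratio of the list, 0.26, with an interval that included 0 (-0.03 to 0.55).

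Among ubiquitin genes and E1 enzymes, RPS27A, a fusion of ubiquitin with a ribosomal protein, had the lowest ratio (14631 and 12516 counts, -0.15). In the list of ubiquitin shuttles and the VCP segregase, 5 of 14 expressed genes were lower and 3 higher, or 2 and 4 with total-count scaling. NPLOC4, a VCP cofactor in the chromosome 17 block, was the lowest (3897 and 2469 counts, -0.58) and the chaperone BAG6 the highest (2012 and 2582, 0.43), while VCP itself had 8308 and 7436 counts (-0.09, or -0.01 with total-count scaling).

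Other multi-subunit machines are set beside the proteasome as a description, with no test of a difference. All 8 CCT chaperonin genes were lower beyond counting error (7 with total-count scaling), with a median of -0.22, from -0.36 (CCT7) to -0.06 (CCT6A). Their levels lay between 187 CPM (CCT4, knockout) and 691 CPM (CCT3, wild-type). The protein-coding genes averaging 10 CPM or more had a median of 28.2 CPM, and the share called grows with depth. The eIF3 subunits, which bind the small ribosomal subunit, had a median of -0.12, with 6 of 13 lower and 3 higher (6 and 6 with total-count scaling), from EIF3E (-0.32) to EIF3C (0.18). The COP9 signalosome, whose subunits are related to the lid, had a median of -0.04, which was 0.03 with total-count scaling, with 3 of 10 lower and 0 higher (1 and 1 with total-count scaling). Its lowest member was GPS1 (3572 and 2446 counts, -0.47), in the chromosome 17 block, and its highest COPS5 (0.09).

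**Figure D4:**
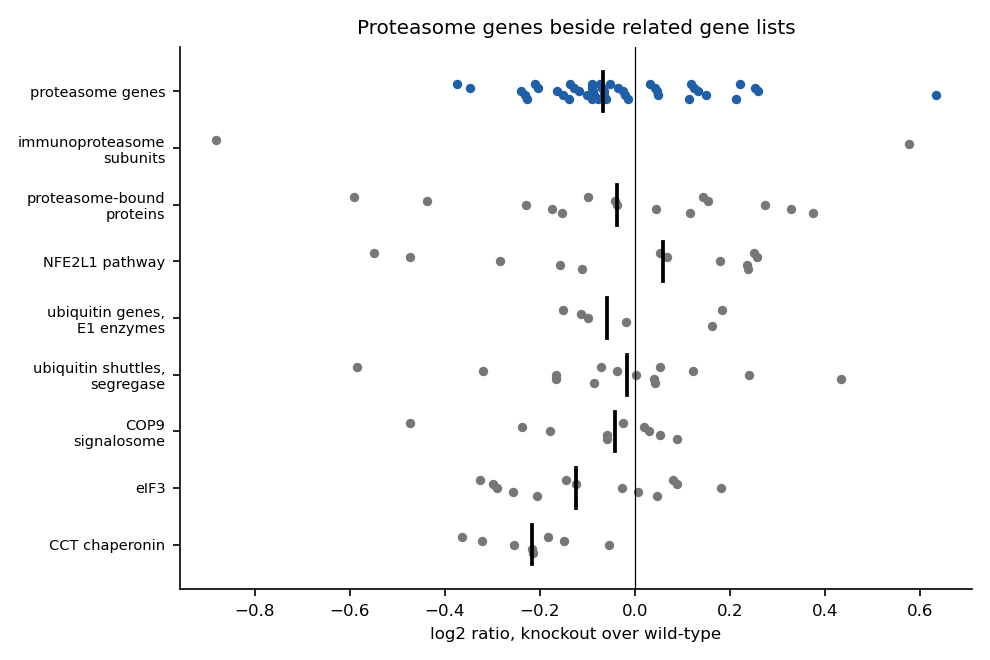
Log2 ratio, knockout over wild-type (x axis), of each expressed gene of the proteasome set and of 8 related lists; points are genes, 1 library per genotype, and black bars mark medians of lists with more than 2 genes. The proteasome row has a median of -0.067 and lies between -0.38 and 0.26, apart from PSMC3IP at 0.63, and the CCT chaperonin genes all lie below 0, where total-count scaling leaves 7 of 8.

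The ratios were also set beside the promoter motifs. The 13 expressed genes with a TGACG half-site had a median log2 ratio of -0.073 (from -0.24 to 0.26), and the 25 without one had -0.066 (from -0.38 to 0.63). In both groups genes lay on either side of 0, with 9 and 18 below it. The 11 genes with the antioxidant-type element had a median of -0.064 and the 27 without it -0.087. The 18 genes with a CCAAT box, such as the pair seen in PSMA5, had a median of -0.094, and the 20 without one -0.059. Of the promoters printed above, those of PSMA5 and PSMF1 were chosen by their ratios, so the spread of the printed set shows nothing further. PSMD9 (-0.14) and PSME1 (0.15) both hold the antioxidant-type element. PSMF1, at 0.26, holds none of the motifs in the stretch shown, although the window of its other start holds TGACG. Whether the motifs bear on the ratios was not tested.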

How the data were processed

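The authors deposited expected counts per gene for both libraries, not scaled between them. The submitters' processing notes name hg19 as the build, and as tools RSEM 1.2.26, STAR 2.4.2a and cutadapt 2.0. RSEM divides shared reads among genes. The annotation release and the strand setting, not given in the sources used here, could move counts between overlapping genes. Both columns were assigned by genotype name, and 0 were left unmapped.

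Symbols came from the gene name table by Ensembl identifier without version, and biotype, gene order and transcript lengths from GENCODE 29 (GRCh38), which matched 52338 of 57820 identifiers (90.5%). Unmatched identifiers held 37.0% of wild-type and 35.2% of knockout counts and stayed in the totals. Expected counts were rounded and scaled by TMM (edgeR 4.0.16, R 4.3.3), and log2 ratios used a prior count of 0.5. Intervals are Clopper-Pearson, at 95% confidence (scipy 1.17.1), conditional on the sum of both counts. They cover counting error only and treat read pairs as independent molecules. A count of 0 was given an upper limit of 3 counts. With 1 library per group no p-value was computed. The interval code was tested on simulated libraries.

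The genes and lists were chosen with earlier results of these data known. All genes of the set may be named. From the other lists the text names fixed regulators and the lowest and highest expressed gene, of which 1 is not reported here. MRPL32, AC010132.3, FTSJ3, RNF31, EMC9, BECN1, NRDE2, DNAJC2, SLC22A23, ACYP2 and MLX were named after their values were seen, as genes that overlap members. So were EPCAM, KRT8, PTPRC, CD3E, COL1A1 and DES among the cell markers and MAFG, MAFF and VCP in their lists. The alternatives were total-count, DESeq2 1.42.0 and upper-quartile scaling, TMM on protein-coding genes, other filters, priors, lengths and thresholds, and a lowess correction (statsmodels 0.14.6) for transcript length and GC content.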

Additional observations from a re-analysis of the deposited data

How the results depend on the processing

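The median log2 ratio of the expressed proteasome genes (-0.067) turned to 0.0056 with total-count scaling. It was -0.029 with total counts without the 5 highest genes, -0.088 with DESeq2 size factors, -0.048 after the lowess correction for transcript length and GC content, and -0.032 as a mean. Total-count scaling moves all genes alike, and the median of all expressed genes moved by 0.073. The count of genes lower beyond counting error (20) was 9 with total counts and 13 with total counts without the 5 highest genes. The other alternatives gave 18 to 22 lower genes. The count of higher genes (10) lay between 8 and 14 in all. With total-count scaling 9 genes turned above 0. Of these PSMD1 (0.0071) and PSMD3 (0.0090) had been lower beyond counting error, and PSMA6 (0.021), PSMB4 (0.059), PSMC6 (0.049), PSMD4 (0.052), PSMD5 (0.037), PSME3 (0.011) and PSMG2 (0.0041) had not. The calls of PSMA4, PSMB5, PSMC1, PSMC2, PSMC4, PSMD6, PSMD8, PSMD9 and PSMD13 as lower were lost there as well. PSMB4, PSMB6, PSMC3 and PSME4 became higher beyond counting error there. With DESeq2 and with upper-quartile scaling PSMA3 and PSMD11 became lower beyond counting error. The count past 2-fold was 0 under each scaling, and 1 at a 1.5-fold threshold. The span of subunit levels was 18.1-fold with the longest transcripts. Adding the counts of same-strand overlapping genes and pseudogenes, chosen after the values were seen, moved PSMA2 to -0.19 and left the counts of 20 and 10. No paired analysis was possible because each genotype has 1 library. For the same reason no replicate could be left out. Depth gives interval half-widths of 0.044 to 0.19 on the log2 scale for the expressed genes, so smaller differences lay within counting error. Larger ones cannot be told apart from differences between clones, cultures or library preparations.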
